A study of Mus musculus with 2 samples.

Results

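The Clcn5 cluster is a group of microRNA (miRNA) genes inside Clcn5 on the mouse X chromosome, measured here in hippocampus. Its members were chosen by name, as the genes Mir188, Mir362, Mir500, Mir501, Mir532 and Mir660 of the GENCODE M21 annotation. Of these 6 names, 5 matched a row of both count tables, out of 2202 miRNA genes in all, and Mir660 was not analysed here. The tissue was hippocampus of wild-type C57BL/6 mice (labelled strain B6NCrl), aged 6 months, with no treatment named. A free-text label calls the donor male, while the sex field itself says it was not recorded. The samples form 1 group of 2 libraries, labelled biological replicates 1 and 2, from 2 biosamples that carry the same donor identifier. No label assigns them to separate animals, and what separates the libraries may be technical. The labels give no second condition, so the cluster is described and the only comparison is between the 2 libraries.

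Clcn5 encodes ClC-5, an exchanger of chloride and protons in endosomes that is best known from the kidney, where its loss causes Dent disease. A miRNA gene in an intron is transcribed with its host or from a start of its own. The hairpin is cut out and trimmed to mature strands (arms, named 5p and 3p). Bases 2 to 8 of an arm, the seed, largely decide which messages it pairs with. In neurons, miR-188 has been studied in synaptic plasticity and miR-501-3p in the control of a glutamate receptor subunit in dendrites. miR-362, miR-500 and miR-532 are best known from work on tumours.

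All 5 genes lie on the minus strand, as Clcn5 does (ENSMUSG00000004317.14, mm10, chromosome X, 7153810 to 7319358). They are also the only miRNA genes of the tables inside its body. In the direction of transcription the first is Mir532 (ENSMUSG00000070139.1, 7248402 to 7248497), 70861 bases downstream of the annotated start of Clcn5. Mir188 (ENSMUSG00000065398.1, 7247989 to 7248056) follows after a gap of 345 bases. Mir362 (ENSMUSG00000070100.1, 7241982 to 7242046) comes 5942 bases further on. Mir501 (ENSMUSG00000076251.1, 7241243 to 7241351) stands 630 bases after Mir362, and Mir500 (ENSMUSG00000070108.2, 7237683 to 7237774) is last, 3468 bases after Mir501. The group spans 10815 bases. Of the 5 annotated Clcn5 transcripts, 3 span the cluster, and in each of the 3 all 5 hairpins are intronic. The nearest annotated Clcn5 exon is 24672 bases from a hairpin.

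The mature arms are shown because their sequence likenesses do not follow the levels of the members. They come from RefSeq (GRCm38.p6), which gave 9 arms for the 5 genes; miR-532-5p was not analysed here, and counts of arms and seeds cover these 9. Each runs 5′ to 3′ with the seed in capitals, and all lie on the minus strand.
miR-500-3p: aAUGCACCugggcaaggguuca
miR-501-3p: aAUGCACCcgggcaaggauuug
miR-362-3p: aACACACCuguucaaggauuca
miR-362-5p: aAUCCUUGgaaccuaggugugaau
miR-500-5p: aAUCCUUGcuaucugggugcuuagu
miR-501-5p: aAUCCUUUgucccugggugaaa
miR-188-5p: cAUCCCUUgcaugguggaggg
miR-188-3p: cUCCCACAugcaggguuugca
miR-532-3p: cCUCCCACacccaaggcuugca
In the order shown they lie at chrX:7237695-7237716, chrX:7241270-7241291, chrX:7241984-7242005, chrX:7242019-7242042, chrX:7237730-7237754, chrX:7241307-7241328, chrX:7248031-7248051, chrX:7247992-7248012 and chrX:7248419-7248440.

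The 9 arms have 7 distinct seeds. miR-500-3p and miR-501-3p share the seed AUGCACC. Counted from 1 at the 5′ end, they differ by U9C, G18A, C21U and A22G (miR-500-3p base first), and 18 of 22 positions are identical. miR-362-3p has another seed but matches miR-500-3p at 17 of 22 positions. miR-362-5p and miR-500-5p share the seed AUCCUUG, and the seed of miR-501-5p differs from it only by G8U. miR-188-3p and miR-532-3p hold a common run of 8 bases, cucccaca, which starts at base 1 of the first and base 2 of the second, so their seeds are the same stretch moved by 1 base. By arm sequence, Mir362, Mir500 and Mir501 thus resemble each other. Mir188 and Mir532, the neighbours at the upstream end, share the run named above in their 3p arms. The 5p arm of Mir188 also comes close to the other group. The seed of miR-188-5p differs from that of miR-501-5p only by C6U (miR-188-5p base first), and 10 of 21 positions are identical. The likenesses therefore do not split the members into separate groups.

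This likeness bears on counting, because the tables count a read for a gene only where it aligned to a single place. Reads with several places made up 43.8% of all reads in replicate 1 and 45.7% in replicate 2. None of the 9 arms stood in full in another of the 1005 hairpins of the RefSeq table. The longest stretch shared between hairpins of the cluster was 14 bases, between Mir500 and Mir501. The longest shared with a hairpin outside it was 12 bases, for Mir500 and for Mir532. Copies elsewhere in the genome were not searched. Counts are per hairpin gene, so the 5p and 3p arms were not separated.

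Levels are given in CPM, counts per 1000000 counts on miRNA genes. All 5 members were detected, which here means at least 10 CPM in each library, as were 302 of the 2202 genes. Together they held 6916 of 4247092 counts in replicate 1, a share of 0.163% (exact 95% Clopper-Pearson interval 0.159 to 0.167%). In replicate 2 they held 7195 of 5041568, a share of 0.143% (0.139 to 0.146%). The mean share was 0.153% ± 0.0142 (SD, n = 2), or 1528 ± 142 CPM. All intervals cover counting error only. No molecular identifiers are named, so repeat copies of a molecule cannot be told apart and the intervals may be too narrow. Sequencing reads here are whole small RNAs, so a hairpin's length does not set its count, and levels of different genes are compared as CPM. How evenly the libraries captured different small RNAs was not tested, so ratios between genes are ratios of counts, not of molecules.

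Mir532, the most upstream gene, led the cluster. It had 3571 counts in replicate 1 (841 CPM, exact 95% interval 813 to 869) and 3661 in replicate 2 (726 CPM, 703 to 750), a mean of 783 ± 81.1 CPM (SD, n = 2). That placed it at rank 97 of all miRNA genes by counted level in replicate 1 and at rank 107 in replicate 2. It stood above the median of the 302 detected genes, which lay at 238 and 276 CPM in the 2 libraries.

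Mir501 came next, with 1949 counts in replicate 1 (459 CPM, exact 95% interval 439 to 480) and 1770 in replicate 2 (351 CPM, 335 to 368). Its mean was 405 ± 76.2 CPM (SD, n = 2), at ranks 123 and 136. The 2 libraries of Mir532 and those of Mir501 did not overlap, and the mean difference of 378 CPM was larger than either SD. Mir532 had 1.83 times the counts of Mir501 in replicate 1 (exact 95% bounds 1.73 to 1.94) and 2.07 times in replicate 2 (1.95 to 2.19).

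Mir188, only 345 bases from Mir532, was counted far less often. It had 685 counts in replicate 1 (161 CPM, exact 95% interval 149 to 174) and 1029 in replicate 2 (204 CPM, 192 to 217), with a mean of 183 ± 30.3 CPM (SD, n = 2). Mir501 stood above it in both libraries, by 2.85 times in replicate 1 (2.61 to 3.11) and 1.72 times in replicate 2 (1.59 to 1.86). Mir188 was the member whose level was higher in replicate 2 than in replicate 1.

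Mir500, the gene furthest downstream, had 647 counts in replicate 1 (152 CPM, exact 95% interval 141 to 165) and 663 in replicate 2 (132 CPM, 122 to 142). Its mean was 142 ± 14.7 CPM (SD, n = 2). In replicate 1 it could not be told from Mir188, since the ratio of Mir188 to Mir500 was 1.06 with an exact 95% interval of 0.949 to 1.18. In replicate 2 that ratio was 1.55 (1.41 to 1.71). Both libraries put Mir188 before Mir500, but only in replicate 2 was the gap larger than counting error.

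Mir362 was the lowest member and close to the detection minimum. It had 64 counts in replicate 1 (15.1 CPM, exact 95% interval 11.6 to 19.2) and 72 in replicate 2 (14.3 CPM, 11.2 to 18.0). Its mean was 14.7 ± 0.557 CPM (SD, n = 2), at ranks 290 and 295. Mir500 exceeded it by 10.1 times in replicate 1 (7.81 to 13.3) and 9.21 times in replicate 2 (7.21 to 11.9). The most and least counted members, Mir532 and Mir362, lay 55.8-fold apart in replicate 1 and 50.8-fold in replicate 2, although they share a strand and an intron.

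**Figure D1:**
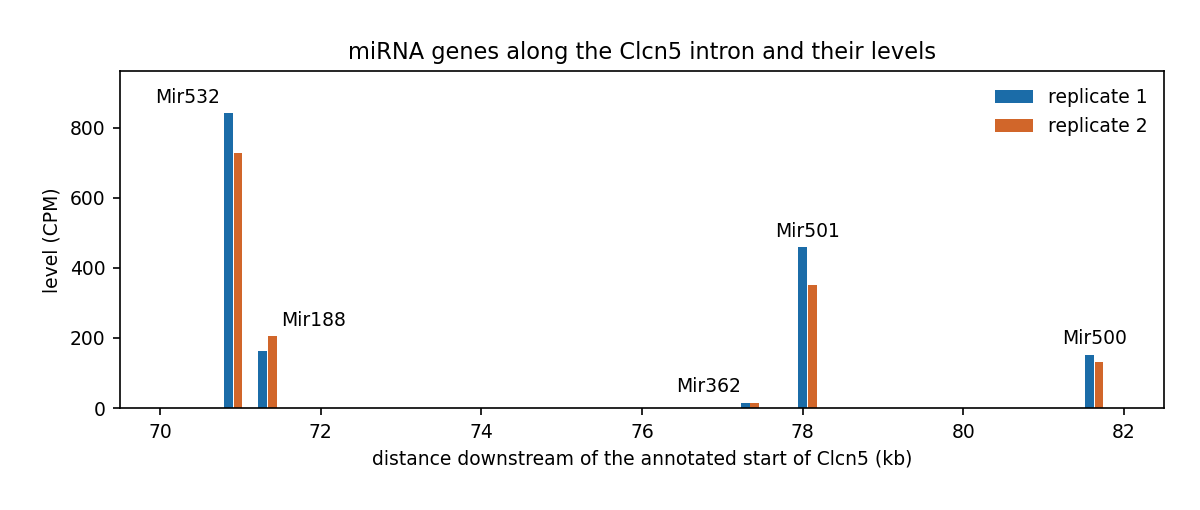
Bars give the level of each member in CPM in replicate 1 (blue) and replicate 2 (orange), placed by distance from the annotated start of Clcn5 in kilobases; bars are drawn wider than the hairpins. Level does not follow position: the high Mir532 and the lower Mir188 stand side by side, as do Mir501 and the lowest member Mir362.

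The make-up of the cluster was then described by the share of each member in the 5 members' summed counts, which does not depend on how the libraries are scaled. Mir532 held 51.6% in replicate 1 (exact 95% bounds 50.4 to 52.8%) and 50.9% in replicate 2 (49.7 to 52.0%). Mir500 held 9.36% (8.68 to 10.1%) and 9.21% (8.56 to 9.91%), and Mir362 held 0.925% (0.713 to 1.18%) and 1.001% (0.784 to 1.26%). For these 3 genes the intervals of the libraries overlapped.

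The other two differed in opposite directions. Mir188 held 9.90% in replicate 1 (exact 95% bounds 9.21 to 10.6%) and 14.3% in replicate 2 (13.5 to 15.1%). Mir501 held 28.2% in replicate 1 (27.1 to 29.3%) and 24.6% in replicate 2 (23.6 to 25.6%). Neither gene's intervals overlapped between the libraries. Mir532 and Mir501 together held 79.8% of the cluster in replicate 1 (78.8 to 80.8%) and 75.5% in replicate 2 (74.5 to 76.5%).

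**Figure D2:**
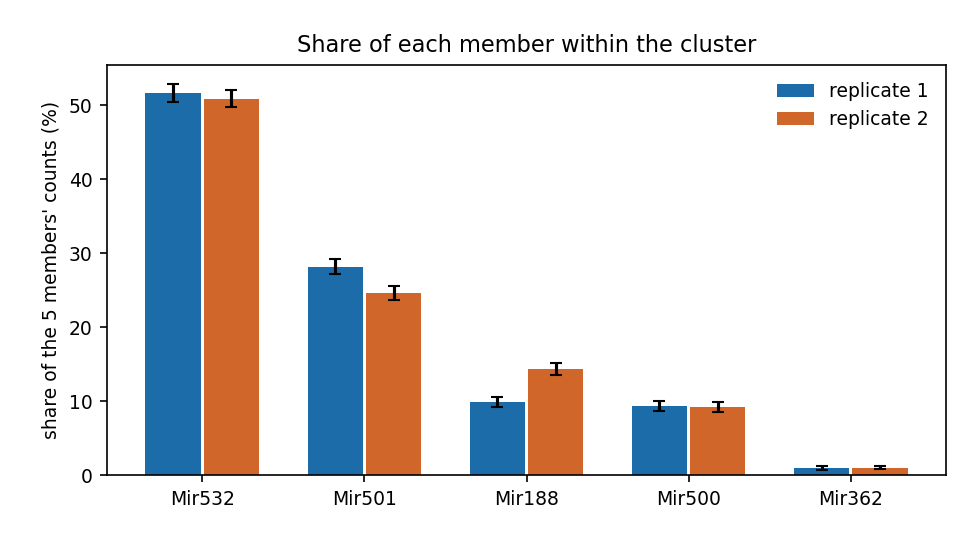
Bars give the percentage of the 5 members' summed counts held by each member in replicate 1 (blue) and replicate 2 (orange), with exact 95% binomial intervals as error bars. The bars of Mir532, Mir500 and Mir362 match between the libraries within these intervals, whereas Mir188 has 9.90% in replicate 1 and 14.3% in replicate 2, and Mir501 has 28.2% and 24.6%.

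Replicate 2 was compared with replicate 1 gene by gene. The test was an exact binomial test, two-sided, over the 522 genes with at least 10 counts and Benjamini-Hochberg adjustment over all of them. This test compares the reads of 2 libraries and not conditions. At a threshold of 0.05, 4 of the 5 members passed, where 51% of all tested genes passed. Mir532, Mir501 and Mir500 were lower in replicate 2 (3 of 5, against 22.8% of tested genes) and Mir188 was higher (1 of 5, against 28.2%). The background leans the other way with other scalings, from 147 genes higher and 119 lower by CPM to 122 and 135 with DESeq2 size factors and 123 and 135 with TMM, while the members' calls stayed the same. With the added demand of a 1.5-fold ratio in either direction, 0 of the 5 members and 24.9% of tested genes passed. The call depends on depth: of the 191 genes with a summed count of at least 1000, a limit chosen after the values were seen, 92.1% passed, and so did the 4 members among them. Read against that share, the members' count is near the background.

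The differences themselves were small. The log2 ratio of replicate 2 over replicate 1 was −0.21 for Mir532 (exact 95% interval −0.28 to −0.14, adjusted p = 1.72e-09 by the exact binomial test). For Mir501 it was −0.39 (−0.48 to −0.29, adjusted p = 1.36e-15, same exact test), the largest difference of the cluster. Mir500 had −0.21 (−0.37 to −0.05, adjusted p = 0.0175, same exact test). Mir188 alone had a positive ratio, 0.34 (0.20 to 0.48, adjusted p = 5.20e-06, same exact test). Mir362, with the fewest counts, had −0.08 (−0.58 to 0.43, adjusted p = 0.883, same exact test), an interval that holds the ratios of the other 4 members.

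Summed over the cluster the log2 ratio was −0.19 (exact 95% interval −0.24 to −0.14). Without Mir188 the sums were 1467 CPM (replicate 1) and 1223 CPM (replicate 2), a log2 ratio of −0.26 (−0.31 to −0.21). The median log2 ratio of the members was −0.21, beside 0.09 over all tested genes. Their median absolute log2 ratio was 0.21, beside 0.46 over all tested genes and 0.36 over the 302 detected ones. All 5 members lay within 1.5-fold between the libraries, as did 69.9% of detected genes.

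**Figure D3:**
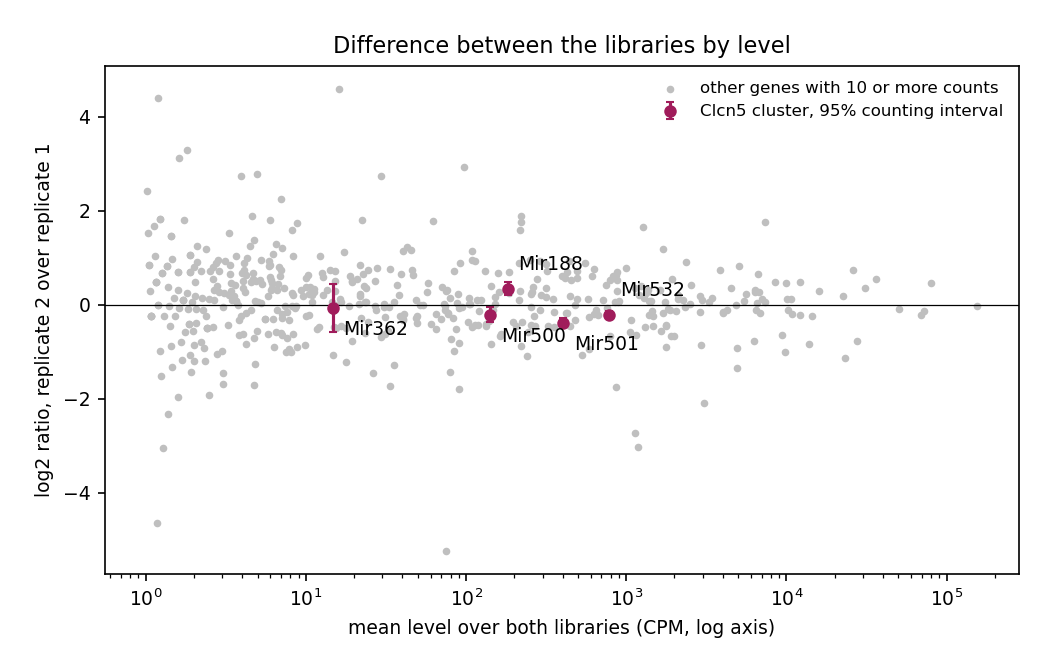
Each point is a miRNA gene with at least 10 counts, by its mean level in CPM (log axis) and its log2 ratio of replicate 2 over replicate 1; the 5 members carry exact 95% counting intervals. The members lie near the zero line, between −0.39 for Mir501 and 0.34 for Mir188, and all 5 are within 1.5-fold, as are 69.9% of detected genes.

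The libraries also differed in marker miRNAs of other cell types, which were measured beside the cluster. The choroid plexus and ependyma list (4 of 7 genes detected) came to a total of 9225 CPM (replicate 1) and 3149 CPM (replicate 2), and the oligodendrocyte list (2 of 2) to 5805 and 8777 CPM. The neuron-enriched list (6 of 9) summed to 202956 and 181833 CPM, the vascular list (3 of 3) to 8456 and 8769 CPM, and the microglia and leukocyte list (3 of 5) to 2926 and 2627 CPM. The microglia and leukocyte sum was mostly Mir150 (2138 and 1949 CPM) and Mir146 (713 and 611 CPM). Mir223 (11.5 and 6.15 CPM) and Mir142 (7.77 and 6.35 CPM) of that list were not detected. The erythroid list (1 of 4) stood at 20.0 and 25.4 CPM. In some lists the members did not all differ in the same direction. Among the vascular genes the endothelial Mir126a had 5706 CPM in the first library and 7027 in the second, whereas the smooth muscle genes Mir143 (2456 and 1545 CPM) and Mir145a (294 and 197 CPM) were lower in the second. The neuron-enriched sum was mostly Mir139, at 156599 and 153300 CPM, while its difference lay largely in Mir132, at 32072 and 14605 CPM. The oligodendrocyte difference lay largely in Mir219a-2, at 3630 and 6444 CPM, beside Mir338 at 2175 and 2333 CPM. In the choroid plexus and ependyma list Mir449a, at 17.7 and 28.0 CPM, went against the sum. Of these markers Mir449b, of ciliated cells, had 0 counts in both libraries. Neuronal markers of the labelled tissue were thus present, except that the 3 genes of miR-124 stayed under the detection minimum. Whether miR-124 reads were lost to alignment at several places was not tested. The part of the marker differences in the members' ratios was not tested. In bulk tissue, fewer cells of a type and less RNA per cell cannot be told apart.

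Of 142 X-linked miRNA genes in the tables, 29 were detected. The cluster held 3.83% of X-linked counts in replicate 1 (exact 95% bounds 3.74 to 3.92%) and 4.74% in replicate 2 (4.63 to 4.85%). The share was higher in replicate 2 although the cluster was lower, since X-linked genes as a whole held 4.25% of counts on miRNA genes in replicate 1 and 3.01% in replicate 2. Mir221 and Mir222 differed most in CPM among the X-linked genes. Among X-linked genes Mir532 ranked 9 and 8, Mir501 10 and 10, Mir188 14 and 13, Mir500 17 and 16, and Mir362 29 and 28, in replicates 1 and 2.

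Another set in introns of 1 X-linked host, the 5 genes in Htr2c, a serotonin receptor gene, had a total of 2282 CPM in the first library and 373 CPM in the second. That is a log2 ratio of −2.61 (exact 95% interval −2.69 to −2.54), an interval that does not overlap the −0.24 to −0.14 of the Clcn5 cluster. The sum rested on Mir1298, at 2117 and 259 CPM. Its neighbours Mir764 (34.6 and 35.9 CPM), Mir448 (77.0 and 61.9 CPM), Mir1264 (51.3 and 15.5 CPM) and Mir1912 (10 and 1 counts) were lower. Of these 5, 0 were called higher in replicate 2 and 4 lower, with Mir764 not passing. Over all tested genes, 28.2% were called higher and 22.8% lower.

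Of the 3 clusters, that of Mir322 and its neighbours was closest to the Clcn5 cluster in its ratio. It summed to 406 and 321 CPM, with a log2 ratio of −0.34 (exact 95% interval −0.44 to −0.24). Mir351 (221 and 172 CPM) and Mir322 (151 and 114 CPM) led it and passed as lower in replicate 2. Mir542 (21.4 and 21.6 CPM), Mir503 (9.18 and 11.9 CPM) and Mir450b (13 and 8 counts) did not pass. Mir450-2 had 3 and 0 counts and Mir450-1 had 0 in both, and a count of 0 allows up to 3 counts, worth 0.706 and 0.595 CPM in these libraries.

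The pair of Mir221 and Mir222 was far higher and less even. Its total was 18068 CPM (replicate 1) and 7716 CPM (replicate 2), a log2 ratio of −1.23 (exact 95% interval −1.25 to −1.21). Mir221 stood at 13121 and 6552 CPM, and Mir222 at 4948 and 1164 CPM. In these 2 libraries the Clcn5 cluster therefore held a lower level than the pair and differed less between the libraries. Its small difference is not particular to it, since 69.9% of all detected genes lay within 1.5-fold between the libraries.

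**Figure D4:**
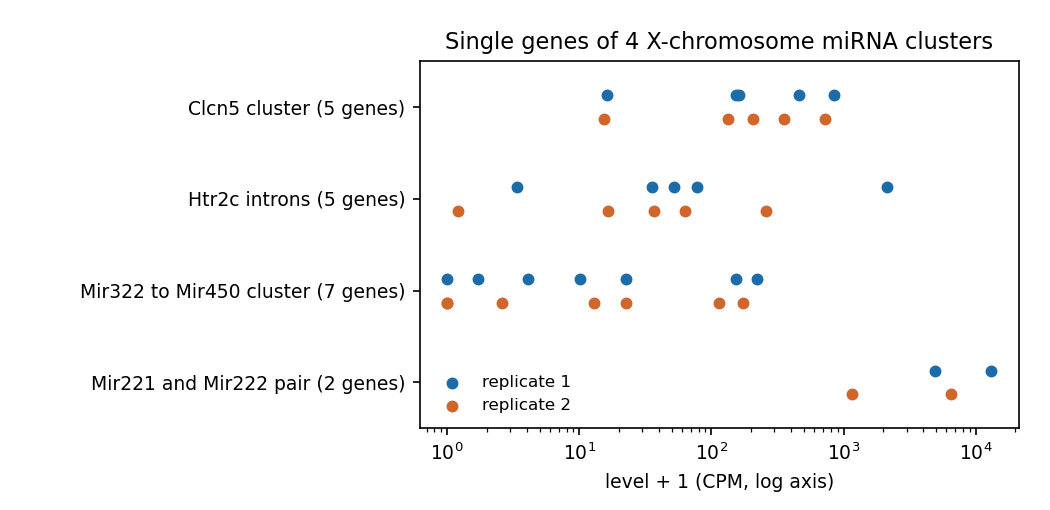
Each point is 1 gene of 4 X-linked miRNA clusters, by its level plus 1 in CPM (log axis) in replicate 1 (blue) and replicate 2 (orange). The Clcn5 genes hold nearly the same places in both libraries. So do Mir322, Mir351 and Mir542 of another cluster, and Mir764 and Mir448 of the Htr2c introns. Mir221, Mir222 and Mir1264 lie further apart. Mir1298, the highest of the Htr2c introns, has 2117 CPM in replicate 1 and 259 CPM in replicate 2.

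Genes outside the cluster that carry one of its seeds were looked up among the 1738 mature arms of the RefSeq table. There were 2, and 1 was detected.
miR-329-3p: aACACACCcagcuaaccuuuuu
miR-7061-3p: uAUCCCUUuuauuuccuuuuag
They lie on the plus strand at chr12:109713541-109713562 and chr7:130908314-130908335.

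miR-329-3p has the seed of miR-362-3p. Its gene Mir329, of the imprinted region on chromosome 12, had 638 CPM (replicate 1) and 534 CPM (replicate 2), a mean of 586 ± 73.3 CPM (SD, n = 2), against 14.7 ± 0.557 CPM for Mir362. Counts per hairpin gene do not say which arm of either was read. miR-7061-3p has the seed of miR-188-5p, and Mir7061 had 0 counts in replicate 1 and 2 in replicate 2. The seeds shown for the arms of Mir500, Mir501 and Mir532, and of miR-362-5p and miR-188-3p were found in no arm of the table outside the cluster.

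The genes whose pattern was most like that of Mir532, by Euclidean distance of log2(CPM + 1) over the 2 libraries, were Mir431, Mir181c and Mir1843a. Mir431, on chromosome 12, had 777 and 743 CPM (distance 0.12). Mir181c had 832 and 862 CPM (distance 0.25), and Mir1843a, on chromosome 12, had 698 and 743 CPM (distance 0.27). With 2 libraries this likeness is mainly one of level.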

How the data were processed

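Small RNA of 2 hippocampus libraries was measured by miRNA sequencing. The deposited tables, 1 per library, hold raw read counts per miRNA gene, on mm10 with GENCODE M21 per the file headers. No source used here names the aligner or the counter. The linked adapter-trimming protocols of the libraries are of different versions, per the labels. Each table has 3 count columns, taken from their sums as without strand, on the gene's strand (used here) and opposite. Every read stands in 1 row of each column. The 4 summary rows were left out of totals: unaligned reads (15.1 and 11.4% of 11106392 and 12627039 reads in replicates 1 and 2), reads aligned to several places (43.8 and 45.7%) and reads outside miRNA genes (2.92 and 3.005%). In the column used the ambiguous row is empty.

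All 2202 identifiers matched M21. CPM used counts on miRNA genes. Log2 ratios of single genes have 0.5 counts added, while those of summed counts and all exact intervals have none. The exact binomial test compares 2 libraries; edgeR's quasi-likelihood test could not be fitted to 1 library against 1, and edgeR and DESeq2 gave only alternative scalings. The binomial comparison was tested on simulated data that held counting error alone. Its totals there came from genes known to be unchanged, so the scaling used here was not tested. The genes named were the members, all miRNA genes inside Clcn5, 3 other X-linked clusters, the 3 genes nearest to Mir532 in log2(CPM + 1) and up to 4 genes sharing a seed. Members and lists were chosen with earlier results of these data known. The planned share within the cluster over 6 members was taken over 5. Python 3.11.15, numpy 2.4.6, pandas 2.3.3, scipy 1.17.1, matplotlib 3.10.9, R 4.3.3, edgeR 4.0.16 and DESeq2 1.42.0 were used.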

Additional observations from a re-analysis of the deposited data

How the results depend on the processing

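The order of the members' levels was the same in both libraries. That order also held per base of hairpin, which is no check on the levels, since length does not set the counts. Per base, the shares within the cluster were 49.9% for Mir532, 22.7% for Mir501, 16.6% for Mir188, 9.44% for Mir500 and 1.38% for Mir362. The cluster share was 0.0596% of all reads of the tables, and 0.357% once the 10 genes with the highest mean CPM were left out of the total. All 5 members were detected under each alternative except the minimum of 100 CPM and the total over all reads of the tables, where 4 were. With a 1.5-fold ratio added, 0 members passed, higher or lower, and 130 of all tested genes did, 75 higher and 55 lower in replicate 2. No call of a member changed with TMM, DESeq2 size factors, the unstranded column or another count minimum. Under DESeq2 size factors and TMM the log2 ratios of 2 genes that never passed turned, to −0.0241 and −0.0209 for Mir764 and to −0.0642 and −0.0611 for Mir542. Leaving out a library gave cluster shares of 0.143 to 0.163%. Depth limits Mir362 most.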
